A study of Rattus norvegicus with 40 samples.

Results

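The messenger RNAs of 10 genes of the epidermal growth factor (EGF) and hepatocyte growth factor (HGF) receptor systems were followed in rat liver during chemically induced cancer. They were taken by gene symbol from the 17337 genes of the count files. They were 4 receptors (Egfr, Erbb2, Erbb3 and Met) and 6 ligands (Tgfa, Areg, Ereg, Hbegf, Btc and Hgf). Egfr, Erbb3, Met, Tgfa and Hgf passed the filter on low counts in all 9 comparisons of groups, Erbb2 and Hbegf in some of them, and Areg, Ereg and Btc in none.

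EGFR binds EGF, TGF-alpha, amphiregulin, epiregulin, heparin-binding EGF and betacellulin, and pairs with other receptors of its family on ligand binding. ERBB2 has no known ligand and ERBB3 binds neuregulins but has little kinase activity of its own, so both work mainly as partners in such pairs. MET is the only receptor of HGF, which in liver is made by stellate and other non-parenchymal cells as an inactive precursor and acts on hepatocytes. In liver, both systems are known for driving hepatocyte growth after loss of tissue.

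Male Fischer 344 rats received diethylnitrosamine (DEN), a liver carcinogen, at 50 mg/kg in olive oil into the peritoneum once a week from 7 weeks of age. Non-tumoral (NT) liver was sampled after 8 weeks of injections, after 14 weeks, and at 20 weeks, when 14 weeks of injections had been followed by 6 weeks without DEN. At 14 and 20 weeks 2 tumor nodules of each rat were sampled as well, and rats of the same age without DEN (no DEN liver) were the controls at each time. Each group held 4 rats, with 24 rats and 40 libraries in all. The labels number rats with F or H and do not say what the letter means. All no DEN rats are H rats, and F09, F10 (8 weeks), F06 (14 weeks) and F03 (20 weeks) received DEN, so that the letter is part of the comparison with the controls. Both nodules of a rat were summed before testing, which leaves n = 4 rats throughout. In bulk RNA of whole tissue pieces, fewer cells of a type and less RNA per cell cannot be told apart.

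Between 20528515 and 160622633 read pairs were counted per library, with a median of 30477421. The largest library was the NT liver of rat H26 at 20 weeks and held 4.08-fold more than the next. The smallest was nodule 1 of rat F06 at 14 weeks, which also had the highest share of pairs outside annotated exons, 34.5% against 21.5% in the library with the lowest. Levels are given in counts-per-million (CPM) after scaling by the trimmed mean of M values (TMM). They are not divided by transcript length and are compared within a gene only. A gene was called changed when its log2 fold change was 0.5 or more in either direction and its adjusted p was at most 0.05 (edgeR quasi-likelihood F test, Benjamini-Hochberg over all genes tested).

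The stretches of DNA in front of the genes are shown for 3 genes. Egfr is the receptor that was called lower in every comparison with no DEN liver, and Hbegf and Hgf are ligands that were higher in NT liver at 14 weeks. Each is the 250 bases before the annotated start in RefSeq on the rat build GRCr8, 5′ to 3′ on the strand of the gene. This is another build than the rn6 used for counting. Capitals mark a GC box, the motif GGGCGG bound by SP1, which here lies on the opposite strand.
Egfr: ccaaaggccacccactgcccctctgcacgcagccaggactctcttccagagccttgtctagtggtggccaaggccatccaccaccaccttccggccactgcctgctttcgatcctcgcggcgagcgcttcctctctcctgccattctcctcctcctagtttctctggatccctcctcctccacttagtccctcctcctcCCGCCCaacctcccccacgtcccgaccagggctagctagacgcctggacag
Hbegf: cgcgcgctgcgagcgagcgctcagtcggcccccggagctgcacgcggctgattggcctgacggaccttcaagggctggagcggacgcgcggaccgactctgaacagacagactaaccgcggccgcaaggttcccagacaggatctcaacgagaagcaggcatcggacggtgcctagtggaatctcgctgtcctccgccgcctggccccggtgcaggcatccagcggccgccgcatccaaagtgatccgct
Hgf: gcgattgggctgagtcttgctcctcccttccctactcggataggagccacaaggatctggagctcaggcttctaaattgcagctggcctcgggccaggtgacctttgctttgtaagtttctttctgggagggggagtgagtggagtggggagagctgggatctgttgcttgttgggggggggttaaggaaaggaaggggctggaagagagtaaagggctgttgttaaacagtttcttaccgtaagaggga
The Egfr window lies at chr14:95378376-95378625 (plus strand), that of Hbegf at chr18:28390221-28390470 (minus strand) and that of Hgf at chr4:19700468-19700717 (minus strand). The GC box of the Egfr window lies 51 bases before the start, and 30.5% of all 33469 windows of this length held such a box on either strand. The 3 windows held no AP-1 site (TGANTCA, in 6.34% of all windows), no E-box (CACGTG, 5.59%), no cyclic AMP response element (TGACGTCA, 1.59%) and no HNF4A site (CAAAGTCCA, 0.338%). GC content was 63.6% for Egfr, 67.6% for Hbegf and 54% for Hgf, against a median of 51.2% over all windows. The Hbegf window held 30 CpG pairs, the Egfr window 11 and the Hgf window 4, against a median of 5. Windows were found for 8 of the 10 genes.

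Between 1 and 5 of these genes were called in each comparison with no DEN liver. Erbb2 and Hbegf passed the filter on low counts at 14 and 20 weeks beside DEN tissue but not among no DEN livers alone, so their calls there are a description and lend no weight to the counts. In NT liver at 8 weeks 4 of the 6 tested genes were called, where 21.7% of all tested genes were called. Of the 4, Hgf was higher (16.5% of all genes) and Egfr, Erbb3 and Met were lower (5.21%). At 14 weeks 5 of 7 were called against 32.6% of all genes. Erbb2, Hbegf and Hgf were higher (22.8% of all genes) and Egfr and Met lower (9.85%). At 20 weeks 1 of 7 was called against 18.1%, with none higher (14.3% of all genes) and Egfr lower (3.82%).

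In nodules against no DEN liver 5 of 7 were called at 14 weeks, where the share of all genes was 39.1%, and 5 of 7 at 20 weeks, where it was 38.8%. At both times Egfr, Erbb3 and Met were lower, with 15.2% of all genes called lower. Erbb2 and Hbegf were higher, with 23.9% of all genes called higher at 14 weeks and 23.6% at 20 weeks. The comparisons of NT liver and of nodules at a given time share their no DEN rats.

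By the range of the 4 rats of each group, in NT liver Hgf lay wholly above the controls at 8 weeks, as did 18.8% of all genes, and none of the 6 lay wholly below them, as 14% did. At 14 weeks Erbb2, Hbegf and Hgf lay wholly above (25% of all genes) and Egfr and Met wholly below (26%). At 20 weeks Erbb2 lay wholly above (16.1%) and none below (12.4%). In nodules Erbb2 and Hbegf lay wholly above at 14 weeks (27.6% of all genes) and at 20 weeks (27.3%). Egfr, Erbb3 and Met lay wholly below at 14 weeks (23.9%), and Egfr and Met at 20 weeks (21.5%). Erbb2 and Hbegf entered the tested genes at 14 and 20 weeks through the DEN tissues, where they are high. Their place above the controls is therefore a description and lends no weight to these counts.

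The group mean of Egfr messenger RNA was lower in DEN-treated liver than in no DEN liver at every time, and lower still in nodules. The ranges of NT liver and nodules overlapped at both times, and the tests between these 2 tissues are given below. At 8 weeks the no DEN rats measured 95.3, 130, 131 and 168 CPM, and the NT livers 47.1, 75.4, 79.3 and 97.1 CPM. Only 1 NT liver reached the range of the controls. The difference was -0.81 on the log2 scale (SE 0.23, adjusted p = 0.0209), a 1.76-fold lower level. The call was lost without rat H07 and with H rats alone (log2 -0.59, adjusted p = 0.0746). At 14 weeks no DEN liver measured 139, 143, 157 and 160 CPM, NT liver 46.8, 50.6, 63.2 and 74.9 CPM, and nodules 19.9, 33.6, 36.5 and 47.2 CPM. Neither DEN tissue overlapped the controls. NT liver was 2.47-fold lower (log2 -1.31, SE 0.14, adjusted p = 4.6e-05) and nodules 4.41-fold lower (log2 -2.14, SE 0.22, adjusted p = 8.93e-05).

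At 20 weeks, 6 weeks after the last injection, the no DEN rats spread widely for Egfr, with 84.7 CPM in rat H13 and 161, 173 and 212 CPM in the others. NT liver held 60.2, 80.5, 92.4 and 99.6 CPM and nodules 29.8, 45.8, 48.5 and 74.7 CPM. NT liver overlapped the controls through H13, and nodules lay below all of them. NT liver was 1.88-fold lower (log2 -0.91, SE 0.27, adjusted p = 0.0381). The call was lost without 7 of the 8 rats left out in turn, at adjusted p between 0.0536 and 0.0854. Leaving out F03, the only F rat of this comparison, is the same fit as H rats alone. Without H13 the call remained. Nodules were 3.23-fold lower (log2 -1.69, SE 0.31, adjusted p = 0.00163), a call that was kept without each of the 8 rats.

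Erbb3, the kinase-poor partner receptor, was lower in NT liver at 8 weeks and in nodules at both times, but its difference in NT liver did not pass the test later. At 8 weeks NT liver held 42.8, 49.0, 50.3 and 67.8 CPM against 63.6, 71.4, 85.3 and 102 CPM without DEN. The groups overlapped by 1 NT liver (log2 -0.62, SE 0.17, adjusted p = 0.0175), and the call was lost without H07 and with H rats alone (log2 -0.44, adjusted p = 0.14). At 14 weeks the means were 107 CPM ± 20.9 (SD) without DEN, 90.1 CPM ± 7.71 in NT liver and 53.5 CPM ± 15.0 in nodules. NT liver differed by log2 -0.21 (adjusted p = 0.188), whereas nodules were 2.03-fold lower (log2 -1.02, SE 0.22, adjusted p = 0.00389). At 20 weeks NT liver and no DEN liver had means of 93.7 and 96.7 CPM (log2 -0.04, adjusted p = 0.868). Nodules held 41.1, 42.9, 54.0 and 87.0 CPM, of which rat H25 alone lay within the control range (log2 -0.81, SE 0.23, adjusted p = 0.0137). The call was lost with nodule 2 of each rat alone (log2 -0.58, adjusted p = 0.155).

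Met, the HGF receptor, was lower in NT liver at 8 and 14 weeks and in nodules at both times. No DEN liver held 22.2, 23.7, 27.6 and 35.9 CPM at 8 weeks, and NT liver 8.46, 12.4, 13.9 and 23.1 CPM, so that 3 of 4 NT livers were below the lowest control. The difference was -0.92 on the log2 scale (SE 0.28, adjusted p = 0.0323). It lost its call without F09, F10, H05, H07 or H18, with adjusted p from 0.0506 to 0.0907 in those 5 fits. It also lost the call with H rats alone (log2 -0.55, adjusted p = 0.147) and with no filter on low counts (adjusted p = 0.0545). At 14 weeks no DEN liver held 31.2, 35.9, 38.7 and 50.4 CPM, NT liver 21.4, 27.2, 27.6 and 30.3 CPM and nodules 5.08, 13.6, 18.4 and 19.5 CPM. No 2 of these tissues overlapped.

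Met in NT liver at 14 weeks was 1.43-fold lower (log2 -0.51, SE 0.15, adjusted p = 0.0140), close to the fold limit, and fell under it without H09 (log2 -0.38) or H22 (log2 -0.43). It also lost its call in a fit of all 8 groups (adjusted p = 0.151). The decrease in nodules was 2.79-fold (log2 -1.48, SE 0.36, adjusted p = 0.00791), with the nodules of F06 far below the other 3 rats. At 20 weeks NT liver held 22.1, 22.7, 31.6 and 44.6 CPM against 34.1 to 44.2 CPM without DEN (log2 -0.37, adjusted p = 0.208). The highest of these NT values was that of H26, the largest library, and without it the difference was log2 -0.61 (adjusted p = 0.0114). Nodules held 12.6, 15.2, 20.8 and 30.6 CPM, all below the controls (2.03-fold lower, log2 -1.02, SE 0.24, adjusted p = 0.00541). This call too was lost with nodule 2 alone (log2 -0.74, adjusted p = 0.0806).

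Erbb2 was the receptor that moved the other way, from a very low level. At 14 weeks the 4 no DEN livers held only 3, 4, 4 and 6 counts, or 0.120 to 0.199 CPM. NT liver held 20 to 31 counts (0.587 to 0.806 CPM) and the added nodules 38 to 65 counts (0.648 to 0.874 CPM). Every DEN value was above every control. These control counts are under the minimum of 10, so Erbb2 entered the test through the DEN tissues, where it is high, and could hardly have done so without a difference. The fitted difference was 4.57-fold in NT liver (log2 2.19, SE 0.30, adjusted p = 0.000156) and 4.82-fold in nodules (log2 2.27, SE 0.27, adjusted p = 0.000149). At 20 weeks no DEN liver held 0.214, 0.285, 0.294 and 0.328 CPM, NT liver 0.409, 0.443, 0.473 and 0.606 CPM, and nodules 0.437, 0.511, 0.814 and 0.832 CPM. Both DEN tissues lay above every control and overlapped each other. Nodules passed the test against no DEN liver (log2 1.16, SE 0.34, adjusted p = 0.0155), and NT liver did not (log2 0.75, SE 0.30, adjusted p = 0.0848).

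At 8 weeks Erbb2 was under the filter on low counts, with 6 to 9 counts without DEN and 10 to 19 in NT liver. In the fit of both times, the effect of DEN on NT liver was larger at 14 than at 8 weeks by log2 1.48 (SE 0.43, adjusted p = 0.0413 for the difference of effects). Erbb2 entered this fit as well through NT liver at 14 weeks, where it is high, so the difference is a description. With each of the 16 rats left out in turn the call was kept in 4 fits (without F06, H12, H17 or H23) and lost in 12, and 8.96% of all genes passed the same test. The no DEN values took part in it: their mean was 0.291 CPM at 8 weeks, 0.151 CPM at 14 weeks and 0.280 CPM at 20 weeks. From 14 to 20 weeks the effect in NT liver differed by log2 -1.44 (adjusted p = 0.0980). No other gene of the 10 passed the test of a difference in NT effect between these times or in nodule effect between 14 and 20 weeks (edgeR), while 0.738% and 0.0862% of all genes did.

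**Figure D1:**
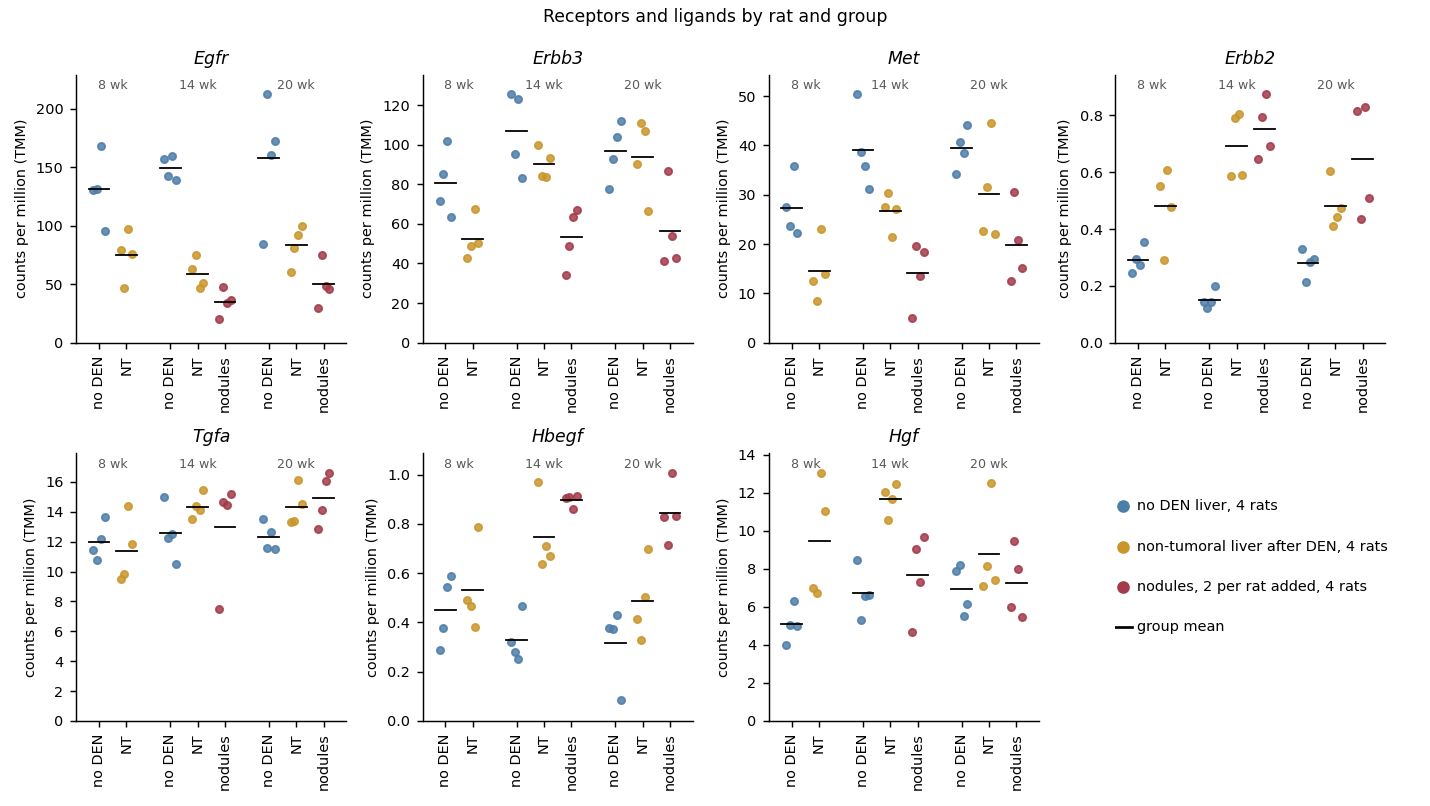
Level of 7 receptor and ligand genes (TMM-scaled CPM, vertical axis from 0) in each rat of the 8 groups, with 1 point per rat and a line at the group mean. The group mean of Egfr falls from no DEN liver to NT liver to nodules at 14 and 20 weeks, and Erbb2 and Hbegf have higher means with DEN. Tgfa lies between 9.52 and 16.6 CPM in every rat and tissue apart from the nodules of 1 rat at 7.52 CPM.

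Of the EGF-family ligands among the 10 genes, Hbegf and Tgfa were tested, and Hbegf was called in 3 of 5 comparisons with no DEN liver. In no DEN livers Hbegf had 7 to 14 counts at 14 weeks and 2 to 9 at 20 weeks. It passed the filter on low counts there through the DEN tissues, where it is high, so these 3 calls are a description. Hbegf encodes heparin-binding EGF, a ligand held at the cell surface and released by shedding. At 14 weeks no DEN liver held 0.249, 0.280, 0.319 and 0.464 CPM, NT liver 0.639, 0.669, 0.710 and 0.968 CPM and nodules 0.861, 0.904, 0.911 and 0.914 CPM. Neither DEN tissue overlapped the controls. NT liver was 2.29-fold higher (log2 1.20, SE 0.28, adjusted p = 0.00424) and nodules 2.67-fold higher (log2 1.42, SE 0.24, adjusted p = 0.00124). At 20 weeks the nodules held 0.714, 0.83, 0.83 and 1.01 CPM against 0.0839, 0.374, 0.375 and 0.428 CPM without DEN (log2 1.41, SE 0.37, adjusted p = 0.00914). NT liver, at 0.328, 0.414, 0.503 and 0.696 CPM, overlapped the controls and was not called (log2 0.66, SE 0.43, adjusted p = 0.269). At 8 weeks the means were 0.449 CPM without DEN and 0.532 CPM in NT liver (log2 0.22, adjusted p = 0.633).

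Tgfa, a ligand of EGFR made by hepatocytes during growth, was not called in any comparison with no DEN liver or with NT liver. Its group means ran from 11.4 CPM in NT liver at 8 weeks to 14.9 CPM in nodules at 20 weeks. In NT liver the difference was log2 -0.08 (SE 0.14, adjusted p = 0.683) at 8 weeks, 0.23 (SE 0.10, adjusted p = 0.0731) at 14 weeks and 0.23 (SE 0.10, adjusted p = 0.0998) at 20 weeks. Nodules differed by 0.03 (SE 0.21, adjusted p = 0.931) at 14 weeks and 0.25 (SE 0.11, adjusted p = 0.0742) at 20 weeks.

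The other EGFR ligands among the 10 genes were close to the limit of detection. Betacellulin (Btc) had 170 counts over all 40 libraries and at most 11 in any of them, with group means from 0.0681 to 0.167 CPM. Amphiregulin (Areg) had 14 counts, spread over 10 of 40 libraries with at most 3 in 1 library. Epiregulin (Ereg) had 4 counts, each in a library of its own. A count of 0 allows up to 3 counts, or 0.0180 to 0.160 CPM depending on the library, so a level of that size was not detectable. Such limits cover counting error only.

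Hgf itself, the ligand of MET, was higher in NT liver during the injections. At 8 weeks NT liver held 6.71, 6.97, 11.1 and 13.1 CPM against 3.97, 4.99, 5.03 and 6.33 CPM without DEN, with no overlap (1.85-fold, log2 0.89, SE 0.24, adjusted p = 0.0152). At 14 weeks NT liver held 10.6, 11.7, 12.1 and 12.5 CPM against 5.33, 6.59, 6.60 and 8.45 CPM, again with no overlap (1.78-fold, log2 0.83, SE 0.13, adjusted p = 0.000285). At 20 weeks 3 of the 4 NT livers lay within the control range and only H26, at 12.5 CPM, stood above it (log2 0.37, SE 0.19, adjusted p = 0.180). Nodules did not differ detectably from no DEN liver at 14 weeks (log2 0.17, SE 0.23, adjusted p = 0.572) or at 20 weeks (log2 0.04, SE 0.21, adjusted p = 0.893).

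**Figure D2:**
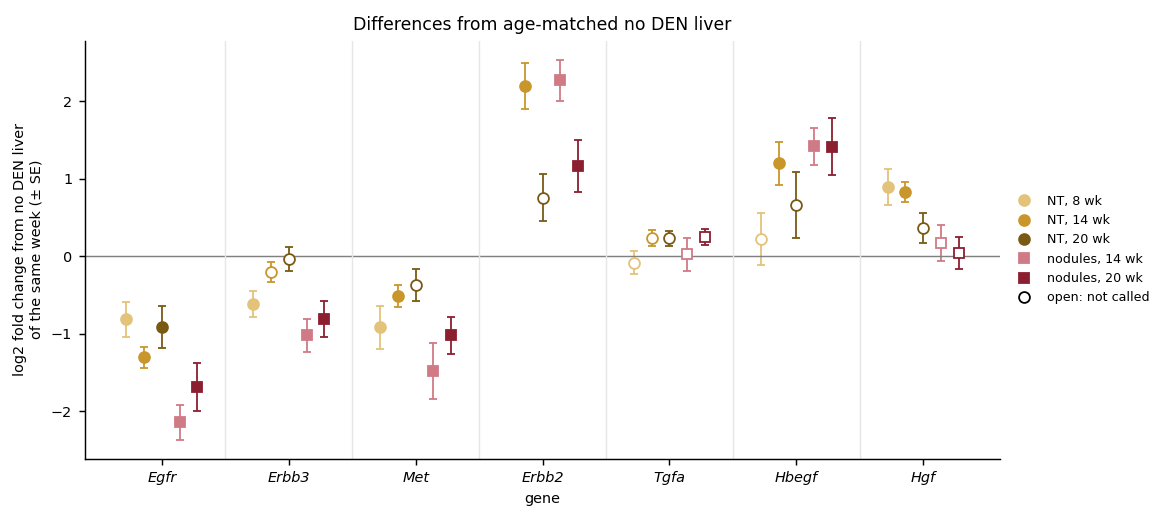
Log2 fold change from no DEN liver of the same week (vertical axis, bars are the SE) for 7 genes in NT liver (circles) and nodules (squares), filled where called. Egfr is below 0 in all 5 comparisons, from -0.81 to -2.14, Erbb2 and Hbegf are above 0, and Hgf is called only in NT liver at 8 and 14 weeks.

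Age alone gave no call. None of the 5 testable genes was called in no DEN liver from 8 to 14 weeks or from 14 to 20 weeks, and neither was any other gene (edgeR, 0 of 10486 and 0 of 10432, with 1038 and 670 at an unadjusted p of at most 0.05, and 20 and 18 called by DESeq2). Met had the lowest p of the 5 from 8 to 14 weeks (log2 0.50, SE 0.18, adjusted p = 0.460).

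Markers of several cell types moved along with these changes. The summed level of 6 hepatocyte genes (Alb, Apoa1, Ttr, Hnf4a, Cps1 and Asgr1) was 214275 to 253638 CPM in the 12 no DEN livers, so that the tissue label held in all. Alb made up most of this sum, with group means of 208685 to 214333 CPM in no DEN liver. The sum was 174270 to 222661 CPM in NT liver at 8 weeks, 131235 to 170910 at 14 weeks and 164113 to 223720 at 20 weeks. In nodules it was 114524 to 141950 CPM at 14 weeks and 105088 to 167349 at 20 weeks. Hnf4a and Cps1 were called lower in NT liver at 8 weeks (5.21% of all genes) and Hnf4a alone at 20 weeks (3.82%). At 14 weeks Alb, Ttr, Hnf4a and Asgr1 were called lower there (9.85%). Apoa1 was called higher in NT liver at 14 and 20 weeks (22.8% and 14.3%). Of the 6 genes, 4 were called lower in nodules at each time (15.2% of all genes) and Apoa1 higher. Egfr, Erbb3 and Met were lower in nodules too, and the part of hepatocyte RNA in their levels was not tested.

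Markers of other cells were called higher with DEN, both where Hgf, Hbegf or Erbb2 was called higher and where it was not. For the counts that follow, the share of all genes called higher was 16.5%, 22.8% and 14.3% in NT liver at 8, 14 and 20 weeks, and 23.9% and 23.6% in nodules at 14 and 20 weeks. Stellate cell genes, the cells known as the source of HGF in liver, were called higher for 5 of 7 in NT liver at 8 weeks and 4 of 7 at 14 weeks, with Dcn at 27.5 CPM against 7.25 CPM at 8 weeks. Pdgfrb, a receptor of stellate cells, was called lower in NT liver at 14 weeks, at 31.9 CPM against 49.0 CPM (log2 -0.58, adjusted p = 0.0002), and its difference was below 0 in all 5 comparisons with no DEN liver. At 20 weeks and in nodules 3 of 7 were called higher. The summed level of 5 bile duct genes was 15.9 to 23.1 CPM in no DEN liver at 14 weeks, 36.5 to 84.3 CPM in NT liver and 59.7 to 114 CPM in nodules, and in nodules at 20 weeks 68.0 to 181 CPM. Of the 4 tested there, all were called higher, Krt19 among them at 36.3 CPM in 14-week nodules against 1.49 CPM, and Cftr passed the filter on low counts through the DEN tissues only. Sinusoidal endothelial genes were called higher for 4 of 5 and proliferation genes for 6 of 6 in NT liver at 8 and 14 weeks and in nodules at both times, and for 4 of 5 and 3 of 6 in NT liver at 20 weeks. Of 5 tested myofibroblast genes, all were called higher in nodules at both times, of which Lox passed the filter through the DEN tissues only, and Col1a2 was listed at 0 in every library. In NT liver Acta2, Col1a1, Col3a1 and Timp1 were called higher at 8 and 14 weeks, and so was Lox at 14 weeks. Of these, Col1a1, Col3a1 and Timp1 were called higher in NT liver at 20 weeks and Acta2 was not. Macrophage genes were called higher for 1 or 2 of 6 in these comparisons, near the share of all genes. The part of these cells in the levels of Hgf, Hbegf and Erbb2 was not tested.

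Nodules were then compared with the NT liver of the same rats. Without regard to the rat, no gene at all was called at either time (0 of 11466 genes at 14 weeks and 0 of 11546 at 20 weeks, with 1348 and 2767 at an unadjusted p of at most 0.05). DESeq2 called 35 genes at 14 weeks and 902 at 20 weeks. NT liver and nodules of a rat deviated together from their group means, so the fit with the rat as a block is given beside it. At 14 weeks this fit called no gene either (edgeR, 0 of 11466). At 20 weeks it called 14.7% of all genes, with 9.21% higher and 5.46% lower in nodules, and 4 of the 7 tested here, with 1 higher and 3 lower. By range over the rats, Erbb3, Met and Hgf in nodules lay wholly below NT liver at 14 weeks, as did 6.15% of all genes, and none of the 7 lay wholly above it, as 5.06% did. At 20 weeks Hbegf in nodules lay wholly above NT liver, as did 6.76% of all genes, and none lay wholly below it, as 4.04% did.

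In the fit with the rat as a block at 20 weeks, Erbb3 was lower in nodules than in NT liver by log2 -0.80 (SE 0.12, adjusted p = 0.00138), Egfr by -0.82 (SE 0.18, adjusted p = 0.0172) and Met by -0.67 (SE 0.16, adjusted p = 0.0233). Hbegf was higher by log2 0.80 (SE 0.24, adjusted p = 0.0241). Hgf differed by -0.31 (adjusted p = 0.0885), Erbb2 by 0.42 (adjusted p = 0.227) and Tgfa by 0.03 (adjusted p = 0.848). The call of Erbb3 was kept without each of the 4 rats. Egfr was no longer called without F03 (adjusted p = 0.0939) or H26 (0.0967), Met without F03, H26 or H28 (0.0608 to 0.124), and Hbegf without F03, H25 or H26 (0.0617 to 0.160).

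At 14 weeks the values of the blocked fit were of like size but more variable, with Egfr at log2 -0.84 (SE 0.21), Erbb3 at -0.82 (SE 0.19), Met at -1.06 (SE 0.33) and Hgf at -0.67 (SE 0.20), all with adjusted p of 0.167 or more. Without rat F06 the spread was smaller, and Egfr (log2 -0.56, SE 0.06, adjusted p = 8.79e-05), Erbb3 (-0.57, SE 0.07, adjusted p = 0.000483) and Met (-0.63, SE 0.06, adjusted p = 6.65e-05) were called, among 300 genes in all.

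Nodule by nodule, Egfr, Erbb3, Met and Hgf lay below the NT liver of the same rat in most nodules, and Erbb2 did not. These values were scaled over all 40 libraries and differ slightly from those above. At 14 weeks all 8 nodules were below their own NT liver for Egfr, Erbb3, Met and Hgf. The nodules of F06 were lowest, with Met at 28.8 CPM in NT liver and 4.32 and 5.92 CPM in nodules, and Egfr at 66.1 CPM in NT liver and 17.5 and 22.8 CPM in nodules. In the other 3 rats Met was 12.7 to 25.8 CPM in nodules against 22.3 to 31.7 CPM in NT liver. F06 nodule 1 was the library with the highest share of pairs outside exons, and its nodule 2, at 28.2%, was the next among the nodules of that time. The part of this in the values was not tested.

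At 20 weeks 7 of 8 nodules were below their own NT liver for Egfr, Erbb3 and Met, and 6 of 8 for Hgf. The exception for Egfr, Erbb3 and Met was nodule 2 of H25, with Erbb3 at 118 CPM against 115 CPM in NT liver, Egfr at 91.4 against 83.8 CPM and Met at 41.5 against 32.8 CPM. Nodule 1 of the same rat held 50.5 CPM of Erbb3, 57.9 CPM of Egfr and 17.8 CPM of Met. Hbegf was above NT liver in 8 of 8 nodules at 20 weeks and in 6 of 8 at 14 weeks. Erbb2 was above NT liver in 6 of 8 nodules at each time. Tgfa was above it in 3 of 8 nodules at 14 weeks and in 6 of 8 at 20 weeks.

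The 2 nodules of a rat differed from each other in the levels of Met, Egfr and Erbb3 at 20 weeks, though Egfr by only 0.058 in H26. The median difference over the 4 rats was 0.96 on the log2 scale for Met, 0.69 for Egfr and 0.61 for Erbb3, against a median of 0.23 over 10154 genes of at least 1 CPM. The value of Met was above that of 98.3% of these genes, Egfr above 94.4% and Erbb3 above 91.9%. Tgfa, with 0.10, was above 11.6%, and Hgf, with 0.25, above 54.0%. The median difference of Erbb2, which was not ranked, was 0.25. At 14 weeks the medians were 0.38 for Met (above 87.1% of these genes), 0.32 for Egfr (above 80.2%) and 0.32 for Tgfa (above 80.8%). Hgf had 0.27 (above 72.3%) and Erbb3 0.10 (above 20.0%), with a median of 0.18 over all these genes. Among Egfr, Erbb3 and Met the widest gap was in Met of F03 at 20 weeks, with 6.15 CPM in nodule 1 and 17.9 CPM in nodule 2. These ranks are descriptive and carry no test.

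**Figure D3:**
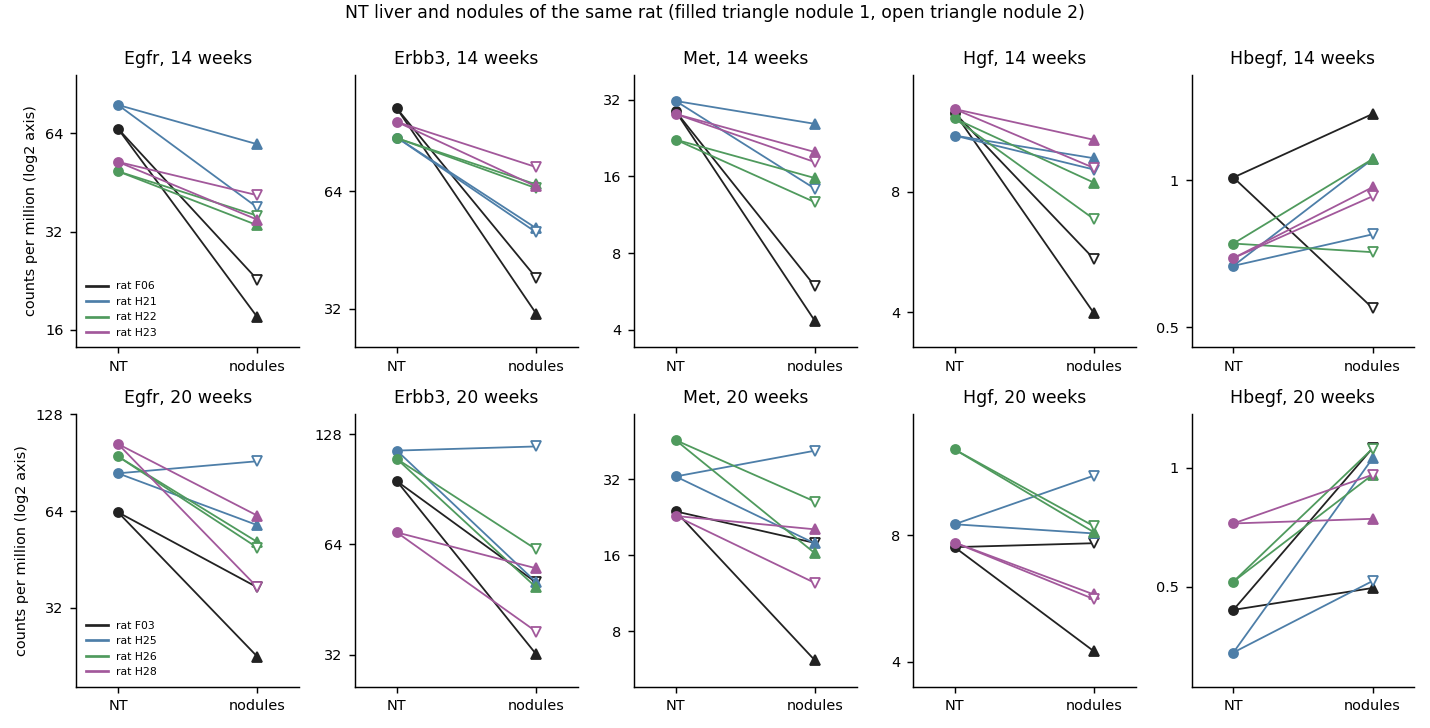
Level in NT liver (circle), nodule 1 (filled triangle) and nodule 2 (open triangle) of the same rat, joined by lines, for 5 genes at 14 weeks (top) and 20 weeks (bottom), in CPM on a log2 axis. Lines of Egfr, Erbb3 and Met run downward except to nodule 2 of H25 at 20 weeks, and F06 has the steepest fall in Met at 14 weeks, from 28.8 to 4.32 CPM.

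The genes whose levels followed each receptor or ligand most closely over the 32 rat-by-tissue values were named by Pearson r of log2 CPM among 10062 genes of at least 1 CPM. Egfr was most like Ptprj (r = 0.95), which encodes a receptor phosphatase known to act on EGFR and MET, then Synrg and Abhd2 (both r = 0.94). Met was most like Alkbh5, Akap1 and Sec24a (r = 0.97, 0.97 and 0.96), and Erbb3 was most like Seli, Acot12 and Mcc (r = 0.94, 0.93 and 0.93). Hgf was most like Prelp (r = 0.84), Antxr1 (r = 0.84) and Frem1 (r = 0.82). For Tgfa the nearest were Map9, Tp53i3 and Slk (r = 0.89, 0.88 and 0.88). The points share rats, since 8 rats gave 2 values each, and they share the differences between groups.

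Further receptors and ligands of both families, outside the 10 genes, numbered 8, of which 5 were tested in comparisons with no DEN liver. In nodules at 14 weeks 3 were called higher and 2 lower, and at 20 weeks 2 higher and 2 lower, where 39.1% and 38.8% of all genes were called. Mst1r, the receptor most closely related to MET, was higher in all 5 comparisons, with 2.62 CPM in NT liver and 2.23 CPM in nodules at 14 weeks against 0.597 CPM (log2 2.17 and 1.88). Nrg1, a neuregulin that binds ERBB3, rose from 4.30 CPM to 12.7 CPM in NT liver (log2 1.60, SE 0.15, adjusted p = 1.79e-05) and 14.3 CPM in nodules at 14 weeks (log2 1.71, SE 0.14, adjusted p = 2.69e-05). Egf fell from 12.4 CPM to 6.28 CPM and 4.21 CPM in the same tissues (log2 -0.94 and -1.57), and in nodules at 20 weeks from 12.7 to 5.04 CPM (log2 -1.35). Mst1, the ligand of MST1R, was lower in nodules at both times (log2 -0.72 and -0.55).

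Of the genes that release EGF-family ligands, 3 of 7 tested were called in nodules at 14 weeks and 3 of 6 at 20 weeks, near the shares of all genes called (39.1% and 38.8%). Rhbdf2, a partner of the sheddase ADAM17, was higher in all 5 comparisons and reached 14.4 CPM in nodules at 14 weeks against 5.84 CPM (log2 1.28, SE 0.16, adjusted p = 0.000217). Adam17 itself measured 27.1 CPM against 23.8 CPM there (log2 0.17, adjusted p = 0.148). Furin, a protease that cleaves many precursors, was lower in nodules at 14 weeks (log2 -0.83) and 20 weeks (log2 -0.61). Rhbdl2, listed at 0 in every no DEN liver at 14 weeks, was at 0.257 CPM in nodules and counts as 1 of these calls. It passed the filter through the nodules alone, so this call is a description.

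HGF is activated by serine proteases that are held back by inhibitors, and 12 of 12 listed genes of this step were tested. In nodules 5 were called higher and 3 lower at 14 weeks (23.9% and 15.2% of all genes), and 5 higher and 2 lower at 20 weeks (23.6% and 15.2%). In NT liver 4 were called higher at each time (16.5%, 22.8% and 14.3% of all genes at 8, 14 and 20 weeks), with 3 lower at 14 weeks (9.85%). Spint1, an inhibitor of the HGF activator, had the largest rise, from 0.458 CPM to 9.65 CPM in NT liver (log2 4.44, SE 0.60, adjusted p = 0.000442) and 13.9 CPM in nodules at 14 weeks (log2 4.91, SE 0.34, adjusted p = 1.31e-05), and to 18.4 CPM in nodules at 20 weeks. St14, the protease matriptase, rose from 1.24 CPM to 9.92 CPM in nodules at 20 weeks (log2 2.97, SE 0.34, adjusted p = 0.000143). Plaur, the urokinase receptor, rose from 0.170 CPM to 1.38 CPM in nodules at 14 weeks (log2 2.98), and passed the filter on low counts through the DEN tissues only, so its call is a description. Coagulation factors XII and XI, made by hepatocytes, were lower in nodules at 14 weeks (F12 log2 -0.95 and F11 log2 -0.83). Both Spint1 and St14 are also expressed in epithelium such as bile duct, whose markers were higher in these tissues, and that part was not tested.

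Of the inhibitors that act back on the receptors, 2 of 14 tested were called higher and 3 lower in nodules at 14 weeks, and 4 of 15 higher and 2 lower at 20 weeks, near the shares of all genes called at these times (39.1% and 38.8%). Dusp4, 1 of the 4, passed the filter on low counts through the nodules only, so its call is a description. Spry2 and Spry4, brakes on receptor signalling to ERK, were higher in nodules at 14 weeks (each log2 0.91). Ptprj, the gene nearest to Egfr in its levels, was lower in nodules at 14 weeks, at 60.6 CPM against 118 CPM (log2 -0.98, SE 0.10, adjusted p = 8.44e-05). Errfi1, which encodes a protein that binds and blocks EGFR, was lower in nodules at 14 weeks (361 against 688 CPM, log2 -0.95, SE 0.27, adjusted p = 0.0176) and at 20 weeks (398 against 829 CPM, log2 -1.08, SE 0.29, adjusted p = 0.0101). Dusp6, an ERK phosphatase, measured 27.8 CPM in nodules at 14 weeks against 27.1 CPM (log2 0.01, adjusted p = 0.979).

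Of 26 adaptors and kinases below the receptors, 2 were called higher and 7 lower in nodules at 14 weeks, and 2 higher and 6 lower at 20 weeks, against 23.9% and 23.6% of all genes called higher and 15.2% lower at both times. In NT liver 0, 2 and 1 were called higher at 8, 14 and 20 weeks (16.5%, 22.8% and 14.3% of all genes) and 2, 3 and 1 lower (5.21%, 9.85% and 3.82%). Pik3r1, the regulatory subunit of PI3 kinase, was lower in all 5 comparisons, at 14.0 CPM in nodules at 20 weeks against 38.2 CPM (log2 -1.47, SE 0.17, adjusted p = 0.000145). Gab2, a docking adaptor, was higher at 1.38 CPM against 0.561 CPM (log2 1.29), and Src was higher at 3.75 CPM against 1.82 CPM (log2 1.02). Grb7, an adaptor that binds ERBB receptors, was lower in NT liver at 14 weeks (25.3 against 44.6 CPM, log2 -0.79, SE 0.12, adjusted p = 0.000308).

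Genes known to respond to ERK, the kinase at the end of this cascade, were higher for 9 of 10 tested in NT liver at 14 weeks, 10 of 11 in nodules at 14 weeks and 9 of 10 in nodules at 20 weeks, and none was lower. Of these, Etv4 (tested in 14-week nodules only) and Fos at 14 and 20 weeks passed the filter on low counts through the DEN tissues. Without them 8 of 9 were called in each of the 3 comparisons. At 8 weeks 4 of 10 and in NT liver at 20 weeks 6 of 10 were higher, the latter 5 of 9 without Fos. The share of all genes called higher was 22.8% in NT liver at 14 weeks, 16.5% and 14.3% at 8 and 20 weeks, and 23.9% and 23.6% in nodules. Myc rose from 4.47 CPM to 35.3 CPM in NT liver (log2 3.02, SE 0.34, adjusted p = 0.000183) and 43.7 CPM in nodules (log2 3.26, SE 0.28, adjusted p = 3.67e-05) at 14 weeks. Egr1 rose from 1.85 CPM to 15.5 CPM in NT liver at 14 weeks (log2 3.09, SE 0.19, adjusted p = 2.44e-06), and Phlda1 from 2.24 CPM to 19.3 CPM in nodules at 20 weeks (log2 3.08, SE 0.29, adjusted p = 5.21e-05). Many of these genes also respond to other signals. Spry2, Spry4 and Dusp6 are counted both here and among the inhibitors, and Dusp6 was the tested gene that was not called in nodules at either time.

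**Figure D4:**
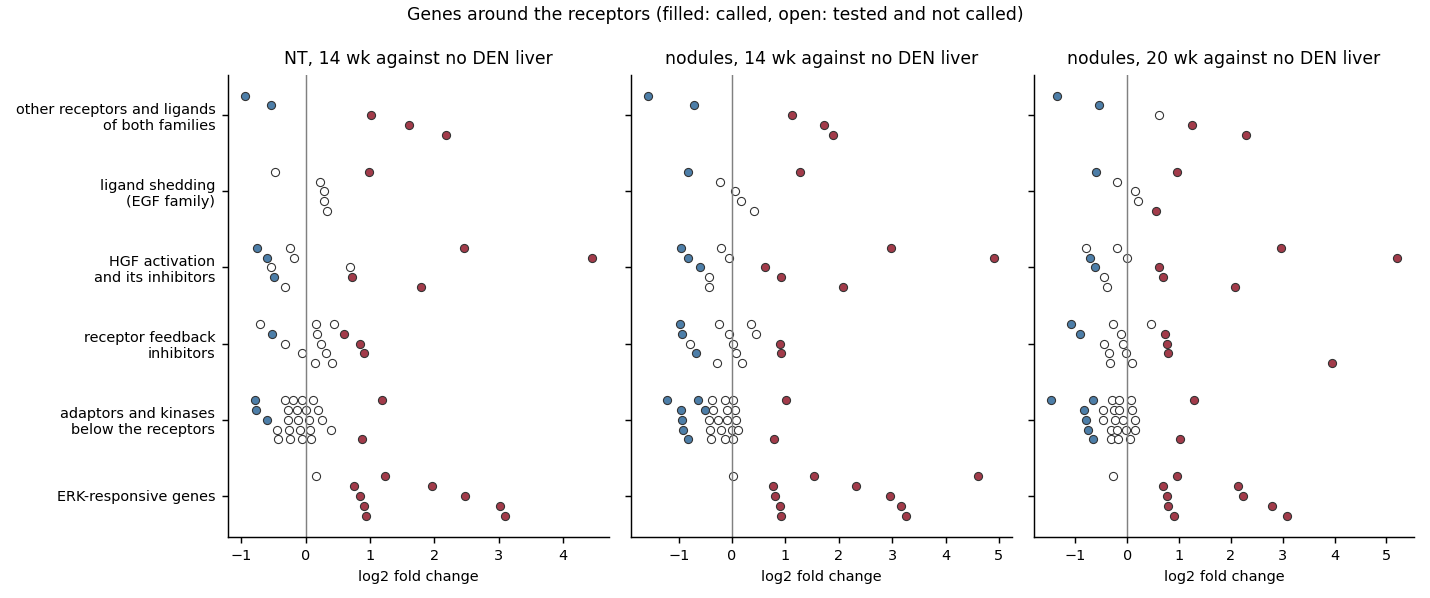
Log2 fold change from no DEN liver (horizontal axis) of the tested genes of 6 lists around the receptors, with 1 point per gene, for NT liver at 14 weeks and nodules at 14 and 20 weeks, filled red where called higher, blue where called lower and open where not called. ERK-responsive genes lie to the right of 0 with 9 of 10, 10 of 11 and 9 of 10 called higher, Spint1 is the point farthest right, and adaptors and kinases gather around 0. Rhbdl2, listed at 0 in no DEN liver, is not drawn.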

How the data were processed

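Messenger RNA of 40 liver and nodule libraries was sequenced as stranded read pairs. The deposited values are raw counts of read pairs per gene, which the authors made by aligning with STAR 2.7.1a to rn6 and counting with HTSeq pairs that lay wholly within the exons of a gene on the reverse strand, leaving out pairs with several alignments. Pairs outside exons and other summary lines were kept out of library sizes. Samples were grouped from their labels, and both nodules of a rat were summed into 1 value. Groups of 4 rats were compared with edgeR 4.0.16 in R 4.3.3 (filterByExpr with a minimum count of 10, TMM, robust quasi-likelihood F test, two-sided, Benjamini-Hochberg adjustment over all genes tested, adjusted p of at most 0.05 and log2 fold change of 0.5 or more either way, without the fold limit for differences of effects). SE is the log2 fold change divided by the square root of F. The scripts were tested on simulated data. The spread of counts between libraries of a group was at least 12.9-fold that of counting alone, as chi-square per degree of freedom. At the median depth 1 CPM is 30.5 counts.

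NT liver and nodules of a number come from the same rat per the labels. The deviations of NT liver and nodules from their group means correlated with r of 0.37 to 0.54 for the 4 rats at 14 weeks. At 20 weeks r was 0.48 to 0.54. The best match was within the rat except for H21 at 14 weeks, which matched another rat better than itself (r = 0.41). The fit with the rat as a block was therefore used beside the unblocked one.

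The 10 genes and all lists were chosen with earlier results of these data known, and lists carry no test. All 10 genes are given by value or by counts in the comparisons with no DEN liver. In the other comparisons some genes that were not called are left without a value. From each list up to 2 called genes with the largest rise and 2 with the largest fall per comparison could be named, and Adam17, Dusp6 and the named marker genes were added after their values were seen. For likeness the 3 genes with the highest r were named. Listed genes not in the count files (Adam12, Braf, Cbl, Lrig1, Lrig3, Clec4g, Colec11, Krt7) were not analysed here. Lymphocyte markers are not reported here. Alternatives were DESeq2 1.42.0, RLE scaling, no filter, a fit of all 8 groups, leaving out each rat, rats numbered H alone, either nodule alone, other thresholds and the rat as block. Blocked fits without a rat or with 1 nodule were chosen after seeing the data.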

Additional observations from a re-analysis of the deposited data

Results flagged for a closer look

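In 56 sets of 4 rat values (7 genes in 8 groups), 1 value stood apart from the other 3 by Dixon's test in 2 sets, and chance alone would give about 1 in 20. In nodules at 14 weeks, Tgfa of rat F06 was 7.52 CPM, against 14.5 to 15.2 CPM in the other 3 rats. In no DEN liver at 20 weeks, Hbegf of rat H16 was 0.0839 CPM, from 2 counts, and the nearest value was 0.374 CPM. The effect of DEN on Erbb2 in NT liver differed between 14 and 8 weeks by log2 1.48 in the test of the difference itself (edgeR, adjusted p = 0.0413), which Erbb2 entered through NT liver at 14 weeks, where it is high, so the value is a description. Across its alternatives, the adjusted p of this difference ran from 0.0262 to 0.0900.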

How the results depend on the processing

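Counts of called genes and of called genes among the 10 depended on the thresholds. At a log2 fold change of 1 and adjusted p of 0.01, NT liver had 855, 1676 and 565 called genes at 8, 14 and 20 weeks (0, 3 and 0 of the 10), and nodules against no DEN liver 2117 and 1946 (3 of the 10 at 20 weeks). With no fold limit NT liver had 3814, 5989 and 2986. With rats numbered H alone 1 of the 10 was called in NT liver at 8 weeks and 0 at 20 weeks, where no filter on low counts also gave 0. Nodule 2 alone gave 3 of the 10 in nodules at 20 weeks, without Erbb3 (adjusted p = 0.155) and Met (0.0806). For nodules against NT liver at 14 weeks DESeq2 called 35 genes. At 20 weeks DESeq2 called 902 genes with 2 of the 10, the fit of all 8 groups 1096 with 2, nodule 1 alone 218 with 1, the rat as a replicate block 1693 with 4, and the block with nodule 1 or nodule 2 alone 1009 with 3 or 1252 with 1. The block left every call at 14 weeks as it was. In no DEN liver from 8 to 14 weeks DESeq2 called 20 genes, no filter 2 and the fit of all groups 1, and from 14 to 20 weeks DESeq2 called 18 and no filter 2. For the difference of NT effects between 14 and 8 weeks (1005 genes), DESeq2 called 1529 and the fit of all groups 151, and Erbb2 was lost under both, with no filter and with H rats alone, leaving 0 of the 10. Between 20 and 14 weeks (83 genes) DESeq2 called 382, all groups 41 and H rats alone 182, and for nodule effects (10 genes) DESeq2 called 29, all groups 16 and nodule 1 alone 5.

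Leaving out each rat gave 1 to 4 of the 10 in NT liver at 8 weeks (1 without H07) and 0 to 1 at 20 weeks (0 without F03, H14, H15, H16, H25 or H28, and Met in place of Egfr without H26). For nodules against NT liver, blocked fits included, it gave 0 to 300 genes and 0 to 3 of the 10 at 14 weeks and 0 to 2078 genes and 0 to 3 of the 10 at 20 weeks, where without H25 the unblocked fit called 445 genes and 1 of the 10. It gave 0 to 117 genes (117 without H07) and 0 to 2 genes for no DEN liver from 8 to 14 and from 14 to 20 weeks, 533 to 1870 genes and 0 to 1 of the 10 for NT effects at 14 against 8 weeks (595 or fewer without F09 or H21, 602 to 622 without H07, H10 or H11, 1760 without F06, 1870 without H17), 31 to 408 genes at 20 against 14 weeks (48 or fewer without F03, H10, H11, H21, H22 or H25, and 234 or more without F06, H26 or H28) and 6 to 15 genes for nodule effects (6 without F03, H11, H14, H16 or H25).

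Log2 values that changed sign were all uncalled. Tgfa became 0.14 in NT liver at 8 weeks with H rats alone, -0.0087 in nodules at 14 weeks with nodule 2 alone, and against NT liver at 20 weeks -0.076 with nodule 1 alone and -0.091 with the block and nodule 1. Hgf became -0.19 in nodules at 20 weeks with nodule 1 alone. Hbegf against NT liver at 14 weeks became -0.071 with nodule 2 alone and -0.062 with the block and nodule 2. With each rat left out (blocked fits included), Hbegf ran from -0.018 to 0.38 in NT liver at 8 weeks, Erbb3 from -0.16 to 0.086 in NT liver at 20 weeks, Tgfa from -0.062 to 0.24 in nodules at 14 weeks and from -0.0031 to 0.064 against NT liver at 20 weeks, and Hgf from -0.13 to 0.16 in nodules at 20 weeks. Beyond the construction of each setting, the cause was not tested. Depth limited Areg, Ereg and Btc, which could not be tested, and Erbb2 and Hbegf, which rest on few counts in most libraries.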
